A study of Mus musculus with 10 samples.

Results

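The 8 enzymes of cholesterol synthesis described here were Hmgcs1, Mvd, Idi1, Fdps, Fdft1, Sqle, Lss and Cyp51. They were chosen by name, as the rows of a footprint count table whose Ensembl identifiers map to these mouse symbols, and they are 8 of the 22373 genes in the table. All 8 passed the filter of at least 32 footprints, summed over the libraries of a stage, in at least one stage, and so are among the 13484 genes tested. Ribosome profiling (Ribo-seq), which sequences the mRNA fragments that ribosomes protect from RNase, was performed on neocortex of wild-type mice at the stages E12.5, E14, E15.5 and E17, named by embryonic day, and on the day of birth (P0). Each stage had 2 libraries, each from lysate pooled over animals of both sexes, and 10 libraries in all. Every library was digested with RNase T1 and RNase A without a drug to stall ribosomes, and no group received a treatment, so stage was the only difference that the labels give. The comparisons address how the footprints on these mRNAs change while the cortex makes its neurons.

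Cells make cholesterol from acetyl-CoA through mevalonate, isoprenoids, squalene and a series of sterols. The developing brain makes its own cholesterol once the blood-brain barrier has closed, and it needs the lipid for the membranes of growing axons and, later, of myelin. Transcription of the enzymes is driven by SREBP-2, which is released from the endoplasmic reticulum when sterols run low and binds sterol response elements in promoters, together with NF-Y, which binds the CCAAT box, and Sp1, which binds the GC box.

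Promoters were read from RefSeq for the GRCm38.p6 build, which gave an entry for 5 of the 8 enzymes, namely Hmgcs1, Mvd, Idi1, Lss and Cyp51. Hmgcs1 is shown because it was the only one of the 5 whose 250 bases before the annotated start hold the sterol response motif TCACNCCAC, and Mvd and Cyp51 because their footprint profiles lay farthest apart among the 8 enzymes. The windows were chr13:119690101-119690350 on the plus strand for Hmgcs1, chr8:122443423-122443672 on the minus strand for Mvd and chr5:4104698-4104947 on the minus strand for Cyp51. Sequences run 5′ to 3′ on the strand of the gene, and capitals mark TCACNCCAC and CCAAT on either strand, the latter read as ATTGG on the opposite one.
Hmgcs1: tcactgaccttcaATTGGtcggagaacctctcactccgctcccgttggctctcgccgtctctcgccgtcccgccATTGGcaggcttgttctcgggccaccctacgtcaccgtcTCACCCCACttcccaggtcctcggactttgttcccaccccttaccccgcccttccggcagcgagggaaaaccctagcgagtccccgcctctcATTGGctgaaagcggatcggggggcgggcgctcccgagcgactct
Mvd: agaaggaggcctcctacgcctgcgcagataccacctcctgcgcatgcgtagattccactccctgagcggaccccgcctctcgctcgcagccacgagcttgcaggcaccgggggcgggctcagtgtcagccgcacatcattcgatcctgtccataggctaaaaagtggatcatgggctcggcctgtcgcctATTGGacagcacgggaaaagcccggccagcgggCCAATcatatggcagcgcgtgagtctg
Cyp51: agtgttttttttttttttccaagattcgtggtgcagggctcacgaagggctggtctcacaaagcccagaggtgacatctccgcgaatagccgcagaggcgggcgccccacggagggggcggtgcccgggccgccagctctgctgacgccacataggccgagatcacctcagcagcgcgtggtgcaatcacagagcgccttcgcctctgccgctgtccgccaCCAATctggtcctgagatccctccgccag
The sterol response motif in Hmgcs1 lies at -137 to -129 from the annotated start and is present in 1.05% of the 32817 promoter windows of this length in the table. CCAAT was found in 5 of the 5 enzyme promoters and in 33.8% of all windows. The GC box letters GGGCGG were also in 5 of 5, against 32.7% of all windows. No motif overlapped another in these windows. These are matches of letters and not measured binding.

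Libraries held between 7544404 counts, in P0 replicate 1, and 36129988 counts, in E14 replicate 2. Replicates were close in the embryo and far apart at birth. Among the 4559 genes that averaged 500 counts or more, the log2 ratio between replicates had an SD that was between 0.13 and 0.22 at the 4 embryonic stages and 0.53 at P0. For the 8 enzymes, the median absolute log2 ratio between the replicates of a stage was between 0.075 and 0.14 in the embryo and 0.30 at P0. Histone genes took 32.7 to 38.5% of the counts at E12.5 and E14 and 6.32 to 9.83% at P0, so counts were scaled by TMM factors, and all levels are CPM, footprint counts relative to library size, on that scale. The deposited counts behind the values ranged from 134 for Lss in E12.5 replicate 1 to 13299 for Fdps in P0 replicate 2. All 10 markers of neocortex examined, such as Neurod6 and Tbr1, had footprints in all libraries. In bulk tissue, fewer cells of a type and less RNA per cell cannot be told apart, and a footprint level joins how much mRNA there was to how densely it was translated.

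Between E12.5 and P0, 5 of the 8 enzymes rose and 2 fell on the TMM scale, while with library totals in place of TMM factors 5 were called higher and 0 lower. Library totals moved the median log2 change of all genes to 0.51, and the share of all genes called with them is not given here. On the TMM scale, Hmgcs1, Mvd, Fdps, Fdft1 and Lss rose by 1.53- to 1.88-fold, while Sqle fell by 1.47-fold and Cyp51 by 1.63-fold (limma-voom, Benjamini-Hochberg adjusted p from 6.49e-05 to 0.0113). Of all genes tested, 30.1% were called higher and 32% lower in this comparison, a call being an adjusted p under 0.05 with a log2 change of at least 0.32 in either direction. The median log2 change was 0.69 over the 8 enzymes and -0.013 over all genes tested. Across the 5 stages, 7 of the 8 changed by the moderated F test (limma-voom adjusted p from 0.000129 to 0.0461), against 63.8% of all genes. The exception was Idi1, with an adjusted p of 0.159. Leaving out any 1 library gave 6 or 7 calls among the 8 between E12.5 and P0, but not always of the same enzymes: without P0 replicate 2 Sqle was not a call and Idi1 was, and without E12.5 replicate 1 Lss was not. A fit to the E12.5 and P0 libraries alone called 4, and the share of all genes called in it is not given here.

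**Figure D1:**
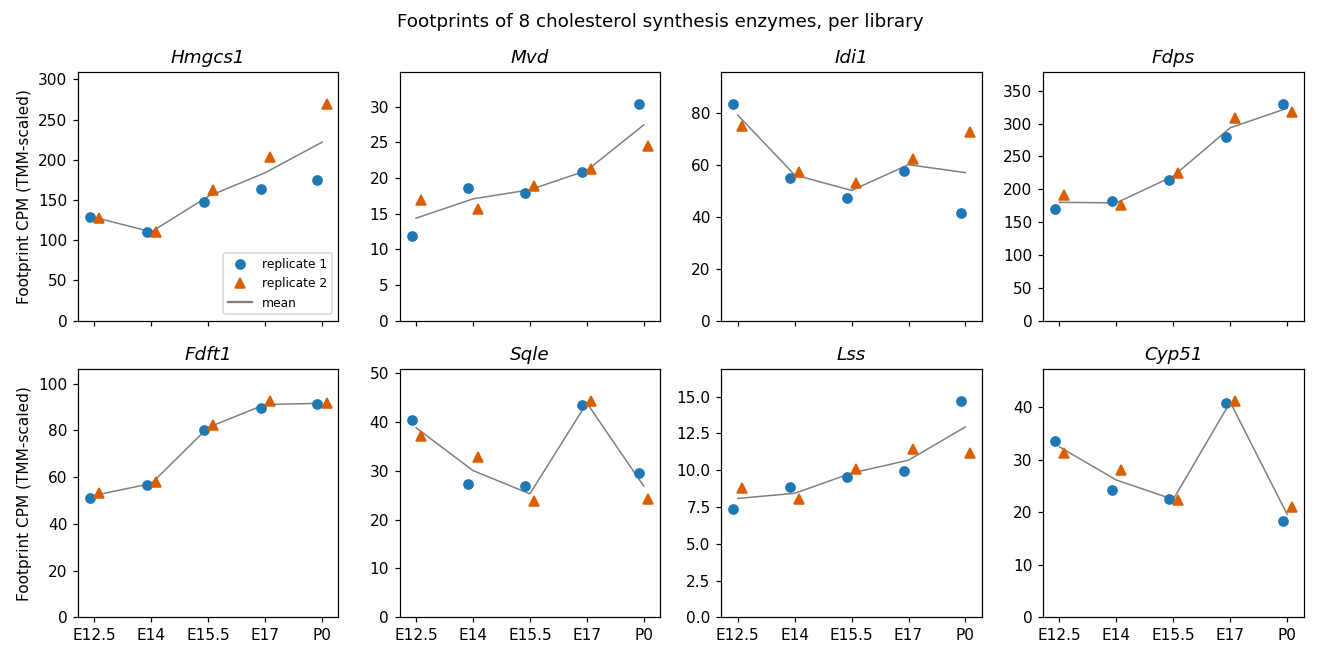
Footprint level of each of the 8 enzymes in every library (TMM-scaled CPM, linear axes from 0), with replicate 1 as circles, replicate 2 as triangles and the stage mean as a line. Hmgcs1, Mvd, Fdps, Fdft1 and Lss were higher in both P0 libraries than in both E12.5 libraries, and Sqle and Cyp51 were highest at E17.

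Hmgcs1 (ENSMUSG00000093930) encodes the cytosolic synthase that makes HMG-CoA, the precursor of mevalonate. Its level was 128.7 and 128.1 CPM at E12.5, 110.1 and 110.5 CPM at E14, 146.8 and 162.0 CPM at E15.5, 164.0 and 203.7 at E17, and 174.7 and 269.0 at P0. Both libraries of each stage from E15.5 on lay above all those of E12.5 and E14, and the P0 libraries were the most unequal pair. The log2 change from E12.5 to P0 was 0.76 ± 0.19 (SE, limma-voom adjusted p = 0.00819), and no step between adjacent stages was called. From E14 to E15.5 the log2 difference was 0.48 ± 0.19, with groups that did not overlap and an adjusted p of 0.0815 in limma-voom. That step was called when either P0 library was left out (limma-voom adjusted p of 0.0058 without replicate 1 and 0.006 without replicate 2), and its adjusted p ran from 0.00205 to 0.275 over 18 alternatives. The difference of P0 from E17 was 0.26 in log2, 0.56 without P0 replicate 1, which made it a call, and -0.035 without P0 replicate 2.

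Mvd (ENSMUSG00000006517), the decarboxylase that makes isopentenyl diphosphate, had its lowest value at E12.5 and its highest at P0. Its level was 11.8 and 16.9 CPM at E12.5, 18.6 and 15.6 CPM at E14, 17.9 and 18.8 CPM at E15.5, 20.9 and 21.3 at E17, and 30.3 and 24.6 at P0. Adjacent stages overlapped or lay close, and the change from E12.5 to P0 was 0.91 ± 0.18 in log2 (SE, limma-voom adjusted p = 0.00267). Each adjacent step fell short of a call, with log2 differences between 0.11 and 0.35.

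Fdps (ENSMUSG00000059743) encodes farnesyl diphosphate synthase, whose product leads to sterols, to ubiquinone and dolichol and to the lipid anchors of proteins. It was measured at 169.5 and 190.7 CPM at E12.5, 182.6 and 176.0 CPM at E14, 214.9 and 225.2 CPM at E15.5, 279.1 and 308.2 at E17, and 329.5 and 317.4 at P0. The first 2 stages overlapped, and from E14 each later stage lay wholly above the one before. The log2 change was 0.85 ± 0.10 from E12.5 to P0 (limma-voom adjusted p = 0.000125) and 0.42 ± 0.10 from E15.5 to E17 (adjusted p = 0.0379). The later call was marginal, since it was lost without any 1 library from E12.5 to E17 (adjusted p from 0.0539 to 0.261) and in edgeR (0.0521), within a range from 0.00205 to 0.261 over 18 alternatives. From E14 to E15.5 the log2 difference of 0.30 had an adjusted p of 0.0444 in limma-voom but stayed under the threshold of 0.32.

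Fdft1 (ENSMUSG00000021273) encodes squalene synthase, the first enzyme committed to sterols. Its level was 51.2 and 53.3 CPM at E12.5, 56.7 and 57.8 CPM at E14, 80.4 and 82.1 CPM at E15.5, 89.6 and 92.5 at E17, and 91.4 and 91.8 at P0. It was the only one of the 8 enzymes called from E14 to E15.5 with TMM factors, with a rise of 0.50 ± 0.08 in log2 (limma-voom adjusted p = 0.00222), where 16.5% of all genes were called higher and 19.6% lower. At the same step the summed level of choroid plexus markers went from between 1168 and 1176 CPM to between 12.4 and 15.2 CPM, and its part in this result was not tested. Its levels at E17 and P0 overlapped, with a log2 difference of 0.0089 and a 95% interval from -0.18 to 0.20. From E12.5 to P0 the change was 0.81 ± 0.08 (adjusted p = 6.49e-05, limma-voom).

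Lss (ENSMUSG00000033105), lanosterol synthase, closes the first sterol ring system from squalene epoxide. It was read at 7.37 and 8.79 CPM at E12.5, 8.83 and 8.02 CPM at E14, 9.55 and 10.05 CPM at E15.5, 9.94 and 11.4 at E17, and 14.7 and 11.2 at P0. Neighbouring stages overlapped at 3 of the 4 steps, and only the whole interval from E12.5 to P0 was called, at 0.61 ± 0.17 in log2 (limma-voom adjusted p = 0.0113). Without E12.5 replicate 1 that difference was 0.49 and no longer a call (adjusted p = 0.0713, with a range from 0.000432 to 0.0757 over 18 alternatives). The step from E17 to P0 became a call without P0 replicate 2 (log2 difference 0.50, limma-voom adjusted p = 0.0458), the lowest of its 18 alternatives, which reached 0.745.

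Sqle and Cyp51 took another course, with their highest levels at E17. Sqle (ENSMUSG00000022351) encodes squalene epoxidase, the oxygen-dependent step that precedes lanosterol synthase. Its level was 40.4 and 37.1 CPM at E12.5, 27.2 and 32.8 CPM at E14, 26.8 and 23.7 CPM at E15.5, 43.4 and 44.2 at E17, and 29.5 and 24.2 at P0. Both E17 libraries exceeded the other 8, and both E15.5 libraries lay under those of E14. From E15.5 to E17 the log2 change was 0.79 ± 0.14 (limma-voom adjusted p = 0.0154), and from E17 to P0 it was -0.73 ± 0.14 (adjusted p = 0.00934).

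Cyp51 (ENSMUSG00000001467), the cytochrome P450 that removes the 14-alpha methyl group of lanosterol, had the largest steps of the 8. It was measured at 33.6 and 31.3 CPM at E12.5, 24.2 and 28.1 CPM at E14, 22.5 and 22.4 CPM at E15.5, 40.8 and 41.1 at E17, and 18.3 and 21.0 at P0. Every E17 value was above all others and every P0 value below all others. The log2 change was 0.87 ± 0.11 from E15.5 to E17 (limma-voom adjusted p = 0.00789) and -1.04 ± 0.11, a 2.06-fold fall, from E17 to P0 (adjusted p = 0.0017).

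In the 8 enzymes together, 3 were called higher and 0 lower from E15.5 to E17, where 5.61% of all genes were called higher and 3.43% lower. From E17 to P0, 2 were called lower and 0 higher, against 11.1% and 9.46% of all genes. The calls at the first of these steps were all lost in limma-voom when any 1 library of E15.5 or E17 was left out. Without 1 of these libraries the log2 differences stayed between 0.86 and 0.87 for Cyp51 and between 0.70 and 0.89 for Sqle. With all 10 libraries, edgeR called 2 and DESeq2 called 3 at this step. For the step to P0, the Sqle call was lost without either E17 library, at log2 differences of -0.75 without replicate 1 and -0.72 without replicate 2. Its adjusted p ran from 0.00135 to 0.113 over 18 alternatives. In a fit to the E17 and P0 libraries alone, 0 of the 8 were called. Without P0 replicate 2 the log2 differences into P0 were 0.50 for Lss and -0.51 for Idi1, against 0.22 and -0.090 with all libraries.

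From E12.5 to P0, Sqle fell by 0.56 ± 0.14 and Cyp51 by 0.71 ± 0.12 on the log2 scale (limma-voom adjusted p = 0.00826 and 0.000904). Without P0 replicate 2 the Sqle difference was -0.36 and not a call (adjusted p = 0.0696, with a range from 0.002 to 0.873 over 18 alternatives). These falls depend on the scaling. With library totals the median of all genes moved to 0.51, and the log2 differences of Sqle and Cyp51 were -0.031 and -0.18, or -0.54 and -0.69 relative to that median. Totals that left out histone genes gave 5 enzymes higher and 2 lower, as with TMM. At the step from E14 to E15.5, library totals moved the median of all genes to 0.29, called 4 of the 8 higher (Hmgcs1, Fdps, Fdft1 and Lss) and turned the differences of Sqle and Cyp51 to 0.049 and 0.078. The changes of both into and out of E17 were called with library totals too.

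Idi1 (ENSMUSG00000058258) encodes the isomerase that turns isopentenyl into dimethylallyl diphosphate. Its level was 83.4 and 75.0 CPM at E12.5, 54.8 and 57.5 CPM at E14, 47.3 and 53.0 CPM at E15.5, 57.8 and 62.4 at E17, and 41.3 and 72.8 at P0. Both E12.5 libraries were above all others, and the P0 libraries spanned the range of the 3 stages before. No comparison was called. From E12.5 to E14 the log2 difference was -0.49 ± 0.22 (limma-voom adjusted p = 0.326), and it became a call without P0 replicate 1 (adjusted p = 0.0197) or P0 replicate 2 (0.0221). The difference of P0 from E12.5 was -0.49 ± 0.22 with an adjusted p of 0.0874, -0.90 and a call without P0 replicate 2 (adjusted p = 0.000409), and -0.11 without P0 replicate 1. The adjusted p ran from 0.000409 to 0.860 over 18 alternatives for that comparison and from 0.0197 to 0.766 for E14 against E12.5.

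At the first step, from E12.5 to E14, 0 of the 8 enzymes were called by limma-voom, edgeR or DESeq2. In limma-voom 2 of the 8 had an unadjusted p under 0.05, as had 2137 of the 13484 genes tested. The background was 0.497% of genes called higher and 0.141% lower. The 2 in limma-voom were Sqle, at -0.37 ± 0.14 in log2, and Cyp51, at -0.31 ± 0.11 (adjusted p = 0.232 and 0.224).

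**Figure D2:**
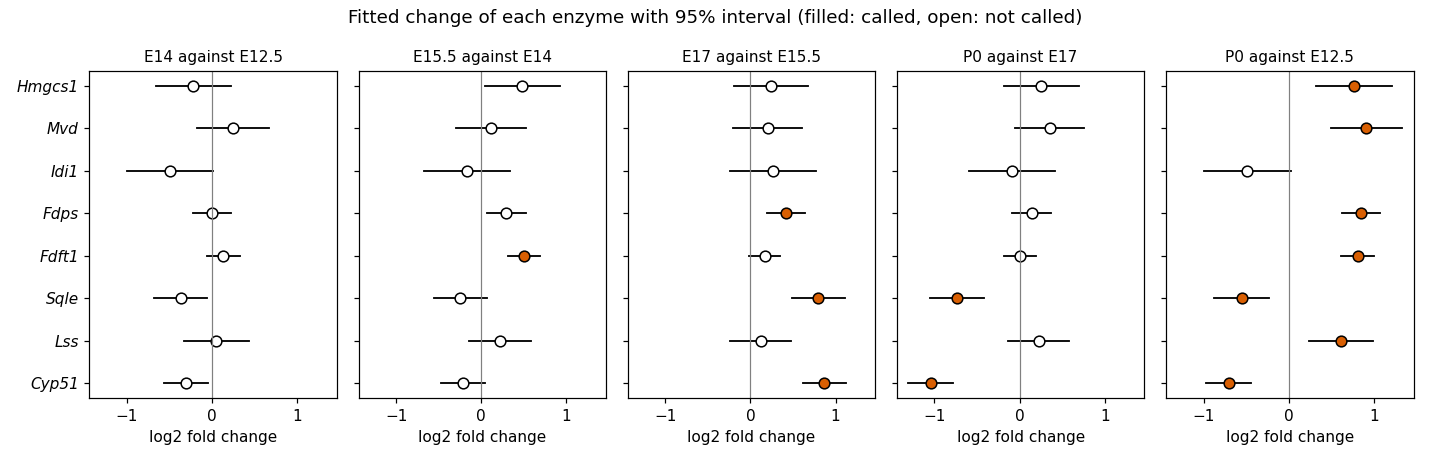
Fitted log2 fold change of each enzyme in the 4 adjacent steps and from E12.5 to P0, with 95% intervals from limma-voom. Filled points passed an adjusted p under 0.05 with a log2 change of at least 0.32, namely 0, 1, 3, 2 and 7 of the 8 in the order drawn.

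Neighbouring steps of the pathway can be set against each other inside a library, where no TMM factor enters. The ratio of Fdft1 to Sqle counts, the enzymes that make and then oxidise squalene, was 1.27 and 1.43 at E12.5, then 2.08 and 1.76 at E14, next 2.997 and 3.47 at E15.5, 2.06 and 2.09 at E17, and 3.10 and 3.79 at P0. The ratio of Lss to Cyp51 counts, enzymes that make and then demethylate lanosterol, was 0.220 and 0.280 at E12.5, then 0.366 and 0.285 at E14, next 0.424 and 0.448 at E15.5, 0.244 and 0.277 at E17, and 0.804 and 0.534 at P0. Both ratios went up to E15.5, down at E17 and up again at P0, and the 2 libraries of each stage lay apart from those of the neighbouring stage at every step. From E12.5 to P0 the mean log2 ratio differed by 1.35 for Fdft1 to Sqle and by 1.40 for Lss to Cyp51. An exact two-sided permutation test of 2 against 2 libraries gave p = 0.333 for each, which is the smallest it can give. The pairs were picked after their values had been seen, so the ratios are a description.

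**Figure D3:**
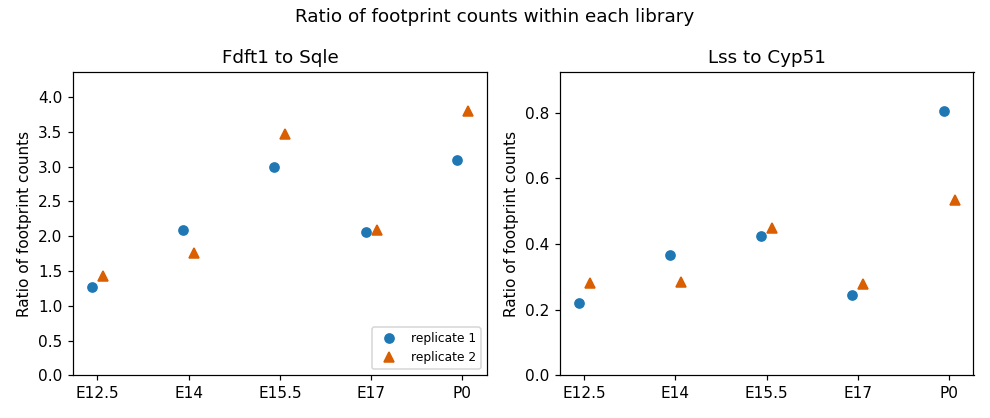
Ratio of deposited footprint counts within each library for Fdft1 to Sqle and for Lss to Cyp51 (linear axes from 0, circles replicate 1, triangles replicate 2). Both ratios were lower in the 2 E17 libraries than in the libraries of E15.5 and P0.

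Centred stage means of log2(CPM + 0.5), compared by the root-mean-square difference over the 5 stages, set the 8 enzymes side by side. Hmgcs1 and Fdps were closest, at 0.087, followed by Mvd and Lss at 0.096 and Sqle and Cyp51 at 0.12. Any pair among Hmgcs1, Mvd, Fdps, Fdft1 and Lss differed by at most 0.17. Idi1 lay nearest to Sqle, at 0.22, and the farthest pair was Mvd and Cyp51, at 0.57. Among 4552 other genes that averaged 500 counts or more, the median distance to the mean profile of the 8 enzymes was 0.34, and the nearest were Rtn4 (0.062), Mageh1 (0.064), Ndufs5 (0.070), BC004004 (0.070) and Rtn3 (0.071). The enzymes themselves were 0.14 (Lss) to 0.37 (Cyp51) from their own mean. As a share of all counts, the 8 enzymes took from 0.0411% in E14 replicate 1 to 0.0977% in P0 replicate 2. Those totals include the histone counts, whose share was lower at P0 than at E12.5 and E14. On the TMM scale their summed level was 525.9 and 541.2 CPM at E12.5, 483.0 and 486.3 CPM at E14, 566.1 and 597.4 at E15.5, 705.6 and 784.8 at E17, and 729.6 and 831.8 at P0. Fdps and Hmgcs1 were its largest parts, with means of 323.4 and 221.8 CPM at P0.

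Of the other genes of cholesterol synthesis, 11 were examined and all 11 were tested. From E15.5 to E17, 3 were called higher and 0 lower, against 5.61% and 3.43% of all genes, with a median log2 difference of 0.50. From E17 to P0, 4 were called lower and 0 higher, against 11.1% and 9.46% of all genes, with a median of -0.14. The 3 called higher into E17 were Msmo1 and Sc5d, oxidases of the sterol series, and Dhcr7, the reductase that acts at the end of it. All 3 were also among the 4 called lower into P0, the other being Lbr. Dhcr7 was at 38.9 and 45.1 CPM at E14, 25.5 and 24.7 CPM at E15.5, 42.9 and 43.6 at E17, and 34.6 and 31.6 at P0. Its E15.5 libraries lay under those of both neighbouring stages. It rose into E17 by 0.78 ± 0.11 in log2 and fell into P0 by 0.39 ± 0.11 (limma-voom adjusted p = 0.00905 and 0.0396). From E14 to E15.5, where neither Sqle nor Cyp51 was called, Dhcr7 fell by 0.74 ± 0.11 (limma-voom adjusted p = 0.00139). The difference between these genes was not tested.

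From E12.5 to P0, 3 of the 11 were called higher and 5 lower, against 30.1% and 32% of all genes. With library totals in place of TMM factors, 6 of the 11 were called higher and 3 lower, while the median log2 change of all genes moved to 0.51. The share of all genes called with library totals is not given here. Mvk, mevalonate kinase, rose by 0.96 ± 0.24 in log2 and Tm7sf2, a sterol C14 reductase, by 0.85 ± 0.29 (limma-voom adjusted p = 0.00873 and 0.031). Lbr, which carries the same reductase activity and also anchors chromatin at the nuclear envelope, fell by 3.35 ± 0.18 (adjusted p = 1.95e-06). The P0 libraries of the first 2 genes were unequal, with the shallower replicate 1 the higher. Mvk was at 19.9 and 18.3 CPM at E12.5 and 52.3 and 28.3 at P0. Tm7sf2 was at 11.4 and 15.4 CPM at E12.5, 24.0 and 25.5 at E17 and 34.8 and 18.5 at P0. Over all 11, 7 had profiles nearer to the mean of Sqle and Cyp51 than to the mean of the 5 enzymes that rose. Closest among them were Sc5d at 0.12 and Msmo1 at 0.19. The other 4 were nearer to the risers, namely Mvk, Pmvk, Tm7sf2 and Nsdhl. Some were nearly tied between the first mean and the second, namely Acat2 (0.281 and 0.301), Hsd17b7 (0.276 and 0.295) and Nsdhl (0.279 and 0.254). Lbr, counted with Sqle and Cyp51, was far from both means (1.03 and 1.40). This grouping was made after the values were seen. Like those of the 8 enzymes, the calls into E17 were all lost in limma-voom when any 1 library of E15.5 or E17 was left out. Which of the 11 were called into E17 also depended on the P0 libraries, as leaving out either one changed the calls. The 4 calls into P0 were all lost without E17 replicate 1 and partly lost without P0 replicate 2.

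**Figure D4:**
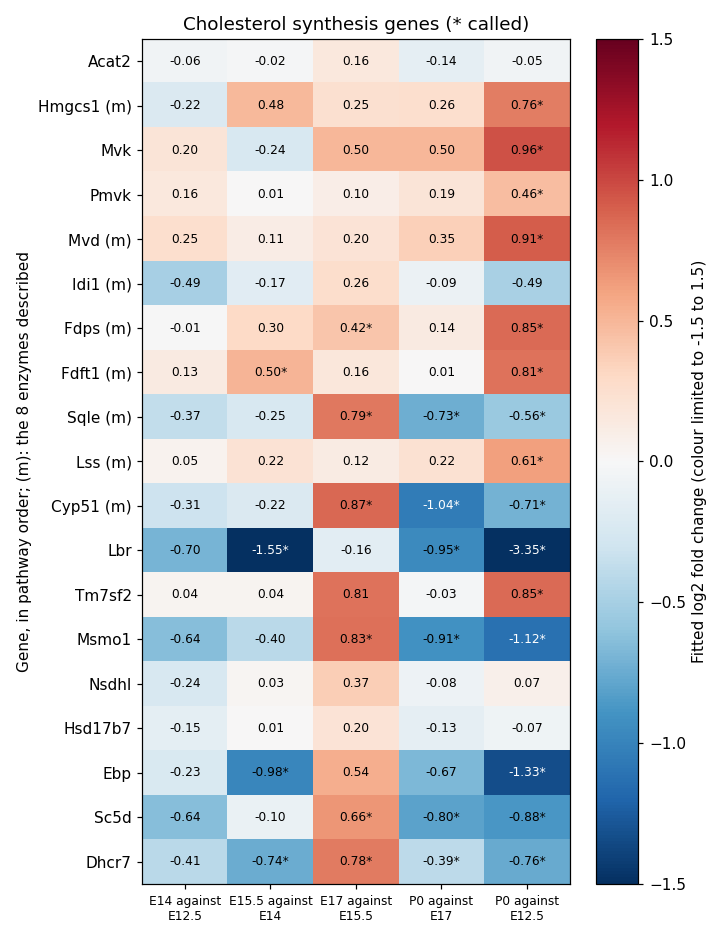
Fitted log2 fold change of the cholesterol synthesis genes examined, in pathway order, the 8 enzymes marked (m), with red for higher and blue for lower in the later stage and an asterisk for a call. The column for E17 against E15.5 holds 3 called rises among the 8 enzymes and 3 among the other 11, and the column for P0 against E17 holds 2 and 4 called falls.

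Of 12 genes examined that sense sterols or answer to SREBP, 11 were tested. Srebf2, which encodes SREBP-2, was at 11.7 and 11.7 CPM at E15.5, 16.3 and 15.2 at E17, and 14.1 and 12.2 at P0, with a called log2 change of 0.43 ± 0.11 into E17 (limma-voom adjusted p = 0.0497). That call was lost in edgeR, in DESeq2 and without any 1 library from E12.5 to E17. No step of Insig1, which holds SREBP in the endoplasmic reticulum, was called, and its difference into E17 was 0.54 ± 0.37. Against 30.1% of all genes called higher and 32% lower from E12.5 to P0, 1 gene of the list was called higher and 5 lower. Stard4, a sterol carrier of the cytosol, was among the latter and fell by 1.07 ± 0.20 (limma-voom adjusted p = 0.00158). Mbtps2, a protease that releases SREBP, was not called in any comparison, with log2 differences from -0.43 to 0.39.

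Fdps also feeds the use of isoprenoids outside sterols. Of 9 genes of that kind, 2 were called higher and 1 lower from E12.5 to P0, against 30.1% and 32% of all genes. Pdss2, a subunit of the synthase for the ubiquinone tail, rose by 0.75 ± 0.12 in log2 and Pggt1b, a subunit of an enzyme that attaches lipid anchors to proteins, fell by 0.38 ± 0.12 (limma-voom adjusted p = 0.000664 and 0.0251). Fntb, the farnesyltransferase beta subunit, rose by 0.42 ± 0.10 from E14 to E15.5 (adjusted p = 0.0133). Coq2, which joins that tail to its ring, was not called in any comparison, and its difference from E12.5 to P0 was 0.33 ± 0.32.

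Markers of other cells moved with the stages too. From E14 to E15.5, the step at which Fdft1 was called higher and Dhcr7 lower, markers of tissue around the cortex fell together. The choroid plexus list summed to 293.1 to 354.4 CPM at E12.5, 1168 to 1176 at E14, 12.4 to 15.2 at E15.5, 8.52 to 9.05 at E17 and 12.1 to 17.7 at P0, with 8 of its 8 tested markers called lower from E14 to E15.5. The meninges list summed to 236.1 to 253.2 CPM at E12.5, 191.4 to 204.9 at E14, 46.4 to 51.4 at E15.5, 66.1 to 74.3 at E17 and 27.4 to 44.5 at P0, with 10 of 10 called lower at that step. Igfbp2 made up most of the mean meninges sum at every stage. Its mean fell from 125.1 CPM, in a mean sum of 198.1, to 45.9 CPM in a mean sum of 48.9 across that step. The median log2 change over the 10 meninges markers was -4.47 there, so the sum understates the fall of most of them. Prlr, of the choroid plexus list, was at 0 in 5 libraries. The endothelial list was highest at E12.5, at 90.0 to 93.6 CPM, and summed to 70.0 to 81.1 at E14, 27.4 to 29.0 at E15.5, 61.5 to 68.7 at E17 and 27.2 to 30.8 at P0. Of its 10 genes, 8 were called lower and 1 higher into E15.5, 4 higher into E17 and 6 lower into P0, and none was at 0 in any library. Of all genes tested, 19.6% were called lower and 16.5% higher into E15.5, 5.61% higher into E17 and 11.1% lower into P0. From E12.5 to P0, 30.1% of all genes were called higher and 32% lower. Red blood cell markers summed to 11214 to 11607 CPM at E12.5, 10041 to 11056 at E14, 6906 to 7422 at E15.5, 7253 to 7260 at E17 and 1439 to 1862 at P0, with 6 of 9 called lower into E15.5 and 9 of 9 from E12.5 to P0. The 11 astrocyte markers summed to 406.6 to 429.2 CPM at E12.5, 375.9 to 384.9 at E14, 200.6 to 210.0 at E15.5, 200.9 to 211.6 at E17 and 251.8 to 255.6 at P0, with S100b at 0 in 4 libraries. The largest part of that sum was Aldoc, with a mean of 213.4 CPM at E12.5 and 112.1 at P0. The genes did not move together, since 7 of the 11 were called higher and 4 lower from E12.5 to P0. Into E17, 3 were called higher and 0 lower. The 11 markers of the oligodendrocyte lineage summed to 30.9 to 43.8 CPM from E12.5 to E15.5, 65.9 to 81.2 at E17 and 120.5 to 150.3 at P0, and of these Mog was at 0 in 7 of the 10 libraries and Mag in 5. Of the 7 tested, 4 were called higher into E17 and 4 into P0, where 9.46% of all genes were called higher. The 12 markers of the ganglionic eminence summed to 29.5 to 36.1 CPM at E12.5, 49.7 to 57.7 at E14, 135.0 to 136.9 at E15.5, 151.9 to 160.6 at E17 and 178.0 to 191.8 at P0, and Lhx8 was at 0 in 9 libraries. Among the 11 tested, 6 were called higher and 1 lower into E15.5, and 8 higher and 0 lower from E12.5 to P0. The 10 microglia markers summed to between 20.3 and 35.6 CPM at all stages, with 6 of 9 tested called lower into E15.5. What part any of these cells had in the values of the enzymes was not tested.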

How the data were processed

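The authors dissected neocortex from wild-type CD-1 mice, sequenced ribosome-protected fragments and deposited whole-number footprint counts per gene, with 1 column per library and totals that differ between libraries. By the methods of the study, duplicate reads were collapsed after adapter trimming, reads of tRNA, rRNA and snoRNA removed with Bowtie and the rest aligned with STAR (version 2.7.0 in the submitters' processing notes), keeping reads that match several places, to GENCODE mouse coding transcripts and, separately, to the genome. DeepShape-prime estimated footprints per isoform, and tximport turned these into gene counts corrected for length. Whether the deposited table is that output is not given in the sources used here, so its counts may already carry a length correction, and genes with near-identical copies are uncertain. Intervals and p-values cover the spread between pools.

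Here, genes that reached 32 footprints, summed over a stage's libraries, at any stage were kept. TMM factors came from edgeR 4.0.16 and tests from limma-voom (limma 3.58.1, R 4.3.3), with 1 coefficient per stage over all 10 libraries, two-sided, with Benjamini-Hochberg adjustment over the 13484 genes kept. Of 22373 identifiers, 22274 matched a symbol. The code was tested on simulated counts. The 8 enzymes, the lists (other synthesis genes, sterol control, isoprenoid use, sterol transport and turnover, fatty acid synthesis, cell type markers) and the tests were chosen with earlier results of these data known. Named genes are the 8 enzymes, Dhcr7, Srebf2, Insig1, the list members with a mean of at least 100 counts and the largest rise or fall from E14 to E15.5 or from E12.5 to P0, the 5 genes nearest to the mean profile and marker genes. Others were named after their values were seen. Some genes of the lists are not reported here, and the lists were counted without them. Alternatives were edgeR's quasi-likelihood test, DESeq2 1.42.0, other scalings, no filter, no fold threshold, sample quality weights, a replicate block, fits to the 2 stages compared and leaving out each library.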

Additional observations from a re-analysis of the deposited data

How the results depend on the processing

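Counts of called enzymes moved by over 1.5 times as follows, the cause not tested unless fewer libraries were fitted. At E15.5 against E14 the 1 call became 4 with library totals and 2 with sample quality weights, in the fit to 2 stages and without the fold threshold. At P0 against E17 the 2 calls became 1 with quality weights and 0 in the fit to 2 stages, and at P0 against E12.5 the 7 became 4 in the fit to 2 stages. Leaving out 1 library gave 0 to 1 called at E14 against E12.5, 1 to 2 at E15.5 against E14, 0 to 3 at E17 against E15.5 and 1 to 4 at P0 against E17. The median log2 change of the 8 enzymes with library totals was 0.46 at E15.5 against E14, 0.19 at P0 against E17 and 1.22 at P0 against E12.5. The medians of all genes with library totals were 0.29, 0.084 and 0.51 in that order. With TMM factors, the range of the enzyme median on leaving out 1 library was 0.059 to 0.26, 0.18 to 0.36 and 0.58 to 0.75 for E15.5 against E14, E17 against E15.5 and P0 against E12.5.

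With library totals, values changed sign for Idi1 at E15.5 against E14 (0.13), P0 against E17 (0.027) and P0 against E12.5 (0.046), for Sqle and Cyp51 at E15.5 against E14 (0.049 and 0.078) and for Fdps at E14 against E12.5 (0.052). Without the filter they did so for Fdps at E14 against E12.5 (0.0036) and Fdft1 at P0 against E17 (-0.018). Leaving out 1 library gave log2 ranges across 0 at P0 against E17 for Hmgcs1 (-0.035 to 0.56), Idi1 (-0.51 to 0.28) and Fdft1 (-0.0146 to 0.036), at E15.5 against E14 for Mvd (-0.023 to 0.23), and at E14 against E12.5 for Fdps (-0.089 to 0.081) and Lss (-0.066 to 0.19). None of these values was a call with TMM factors and all libraries. The calls of Fdft1 at E15.5 against E14 and P0 against E12.5, and of Fdps and Mvd at P0 against E12.5, held in all 18 alternatives run for them.

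Replicate numbers share no stated litter or day. Same-numbered libraries deviated together in 5 of the 10 pairs of stages, all from E14 on (correlations from 0.21 to 0.43), and not in the other 5, which were the 4 with E12.5 and that of E14 with E17 (from -0.64 to -0.044), so the numbers were not taken as pairs. With the replicate number as a block, the call of Fdps at E17 against E15.5 was lost (0.42 in log2, limma-voom adjusted p = 0.0582), leaving 2 of the 8 called at that step, the F test called 6 of 8 in place of 7, and no other call between stages changed for the 8 enzymes. P0 replicate 1, with 7544404 counts, held only 135 counts of Lss and 168 of Cyp51, and 2 libraries a stage limit every comparison.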

Other observations

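Genes of sterol transport and of fatty acid synthesis, which share control by SREBP or supply with the 8 enzymes, were counted beside them. Of 14 transport and turnover genes tested, 4 were called higher and 6 lower from E12.5 to P0, against 30.1% and 32% of all genes. From E14 to E15.5, 1 was called higher and 7 lower, against 16.5% and 19.6% of all genes. Apoe, the main apolipoprotein of the brain, was at 148.9 ± 14.7 CPM at E12.5, then at 190.8 ± 2.34 CPM at E14, 60.7 ± 3.74 CPM at E15.5, 135.3 ± 5.80 CPM at E17 and 270.0 ± 30.0 CPM at P0 (SD, n = 2). It fell by 1.65 in log2 from E14 to E15.5 and rose by 1.16 into E17 and 0.99 into P0. At that first step 8 of 8 choroid plexus and 10 of 10 meninges markers were called lower, and their part in it, as in the changes of Scd1 and Me1 at that step, was not tested. Npc2, which binds cholesterol in lysosomes, fell by 2.31 ± 0.12 from E12.5 to P0 (limma-voom adjusted p = 1.85e-06), and Lrp1, a receptor for Apoe, rose by 0.57 ± 0.18 (adjusted p = 0.0206).

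Among 12 fatty acid synthesis genes, 3 were called higher and 6 lower from E12.5 to P0, against 30.1% and 32% of all genes. Scd1, a fatty acid desaturase, had its calls in the directions of those of Dhcr7 at each step after E14, with log2 changes of -0.80 from E14 to E15.5, 0.78 into E17 and -0.48 into P0. Me1, malic enzyme and a source of NADPH, rose by 2.06 ± 0.16 over the whole interval and by 0.91 from E14 to E15.5 (limma-voom adjusted p = 1.37e-05 and 0.00261). Elovl5, an elongase, fell by 1.49 ± 0.16 from E12.5 to P0. Calls into E17 in the transport and fatty acid lists were all lost in limma-voom when any 1 library of E15.5 or E17 was left out. Leaving out E17 replicate 1 removed most of the called falls into P0 in both lists, and leaving out E17 replicate 2 removed some.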
